A study of Saccharomyces cerevisiae with 312 samples.

Results

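Strains altered in MMS2, UBC13, RAD5, RAD6 and RAD18, the genes of the postreplication ubiquitination pathway of budding yeast, were followed across a set of pooled genetic interaction screens. The strains were taken by gene name from the array annotation. MMS2 was selected on its log2 ratios, which had given calls in many queries of these same screens, and the others were added as its pathway partners. Of the 5 genes, 3 were measured (MMS2, UBC13 and RAD5) among 4125 strains measured in all. In the screens a query mutation was crossed into a pool of barcoded mutants, the haploid double mutants, derived from BY4742 and BY4741, were grown for 18 generations with both G418 and nourseothricin, and barcode levels were compared with those of a reference population on 2-colour arrays. The 312 arrays hold 304 screens, and the query mutations were 139 deletions, 11 DAMP alleles (destabilised transcripts) and 4 TETO2 alleles (a repressible promoter). Reference populations came from 31 pools grown under the same selection, with 252 arrays against mixes of several deletions and 60 against a single deletion strain. The labels name the query genotype and not the alleles of the pool strains, so a pool strain is called here by its gene.

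When a replication fork stalls on damaged DNA, the ubiquitin-conjugating enzyme Rad6 and its ligase Rad18 attach a single ubiquitin to the sliding clamp PCNA, which opens the way to translesion polymerases. Ubc13 and its catalytically inactive partner Mms2 form a heterodimer that, with the ligase and translocase Rad5, extends that ubiquitin into a chain of a kind that does not target proteins for degradation, and the chain directs an error-free bypass by template switching. Ubc13 with Mms2 also builds such chains outside the nucleus, for example in the sorting of membrane proteins.

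Every value below is a deposited log ratio of query population over reference population, read as log2 and centred on the array's median. A strain above 0 thus had a higher ratio of query to reference than the middle strain of that array. The sign of the ratio was read from linkage, and 17 arrays of a pair of reference pools were turned. The queries DMA1, HRD1, UBC11 and UBP8 rest on turned arrays alone. An array measured 3290 to 4125 strains. The 140 queries with at least 2 screens were tested. The other 14 are given as values. A call needed a limma adjusted p under 0.05 over all 547925 strain and query pairs and a log2 size of at least 1. No label says that repeat screens came from separate crosses, so a p-value covers the spread between arrayed screens, which may be technical.

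MMS2 was read by 2 features, present on 312 and 311 of 312 arrays, and RAD5 by 2 features, present on 308 and 303. For UBC13, 2 of 4 features passed the filter of presence on at least 80% of arrays, with values on 281 and 278 arrays, and the other features had values on 5 and 3 arrays. No feature of RAD6 or RAD18 passed: the 2 features of RAD6 had 1 value in all, and the best of the 4 features of RAD18 had values on 4 arrays. The Rad6 and Rad18 steps are therefore not described. The barcodes of a strain, which are technical measures of the same cells, correlated over arrays with r = 0.749 for MMS2 (301 arrays), 0.930 for UBC13 (259 arrays) and 0.554 for RAD5 (293 arrays).

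Queries close to a strain's own locus give a check of the strain's identity, since both markers then rarely meet in 1 spore. The MMS2 strain had log2 ratios of -4.13 and -4.09 in the PAN2 query, 8 genes from MMS2, and of -2.53 and -2.52 in the SNR82 query, 15 genes away. The RAD5 strain had -3.18 in the IRC25 query, 12 genes from RAD5, and in queries 27 and 28 genes away (SHM2 and REX2) it had -1.18 and -1.27, and -1.08 and -0.87. Both strains were thus far below 0 in the queries next to their loci. UBC13 has no query within 25 genes. At 27 genes (OCA6) the UBC13 strain had -1.05, at 30 genes (TRM1) 0.99, and over the 12 arrays of queries 27 to 97 genes away its values ran from -1.05 to 1.56. The identity of the UBC13 strain could therefore not be checked from linkage. No array with such a value other than 1 of the UBC5 query had been turned. All pairs within 100 genes were left out of what follows.

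**Figure D1:**
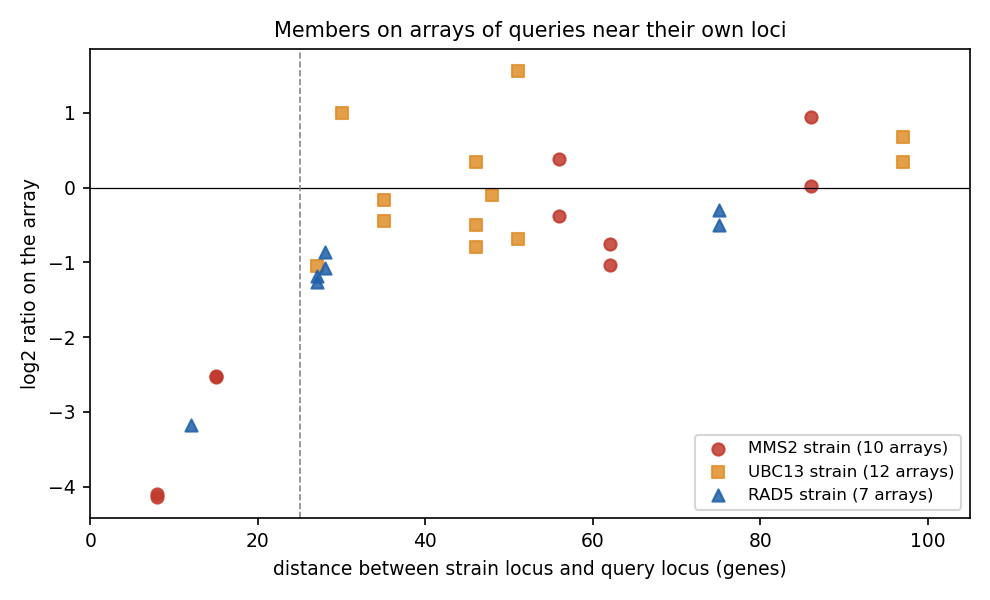
Log2 ratio of the MMS2 (circles), UBC13 (squares) and RAD5 (triangles) strains on each array of a query on the same chromosome within 100 genes, against the distance in genes; the dashed line marks 25 genes. MMS2 sits at -4.13 to -2.52 in queries 8 and 15 genes away and RAD5 at -3.18 in the query 12 genes away, and UBC13 has no query left of the line.

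Mms2 and Ubc13, the heterodimer that builds the chain, had among the highest median levels of all strains. Rad5, the ligase that brings them to PCNA, did not. Over queries the MMS2 strain had a lowest mean log2 ratio of -2.13, a median of 0.71 and a highest of 1.64, and 127 of 149 query means were above 0. The UBC13 strain had a lowest of -3.30, a median of 0.78 and a highest of 2.58, with 113 of 147 above 0. The RAD5 strain had a lowest of -1.20, a median of 0.20 and a highest of 1.13, with 102 of 150 above 0. Medians of all strains had their middle at 0.00 and their 5th and 95th percentiles at -0.15 and 0.21. Only 9 strains had a higher median than MMS2 and 5 a higher one than UBC13, against 237 for RAD5. Strains of genes within 5 genes of each member had medians of 0.05 to 0.24 around MMS2 (6 strains), -0.23 to 0.13 around UBC13 (5 strains) and 0.02 to 0.28 around RAD5 (6 strains), below the medians of MMS2 and UBC13 themselves. The RAD5 median lay within the range of its neighbours and below the 95th percentile of strains.

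The medians of MMS2 and UBC13 were above 0 for every kind of query allele and of reference. By query allele, the MMS2 strain had a median of 0.95 over 11 DAMP queries, 0.77 over 4 TETO2 queries and 0.67 over 134 deletions. The UBC13 strain had 0.99 over 10 DAMP queries, 0.76 over 4 TETO2 queries and 0.78 over 133 deletions. Over screens against a single deletion strain the median was 0.95 for MMS2 (58 screens), 0.51 for UBC13 (54) and 0.10 for RAD5 (55), and against the mixes it was 0.59 for MMS2 (236 screens), 0.80 for UBC13 (216) and 0.19 for RAD5 (241). The median was thus higher against single strains for MMS2 and against mixes for UBC13, a contrast that was not tested. Of the reference pools with at least 4 screens, the pool median was above 0 in 27 of 27 for MMS2, in 23 of 26 for UBC13 and in 22 of 27 for RAD5.

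**Figure D2:**
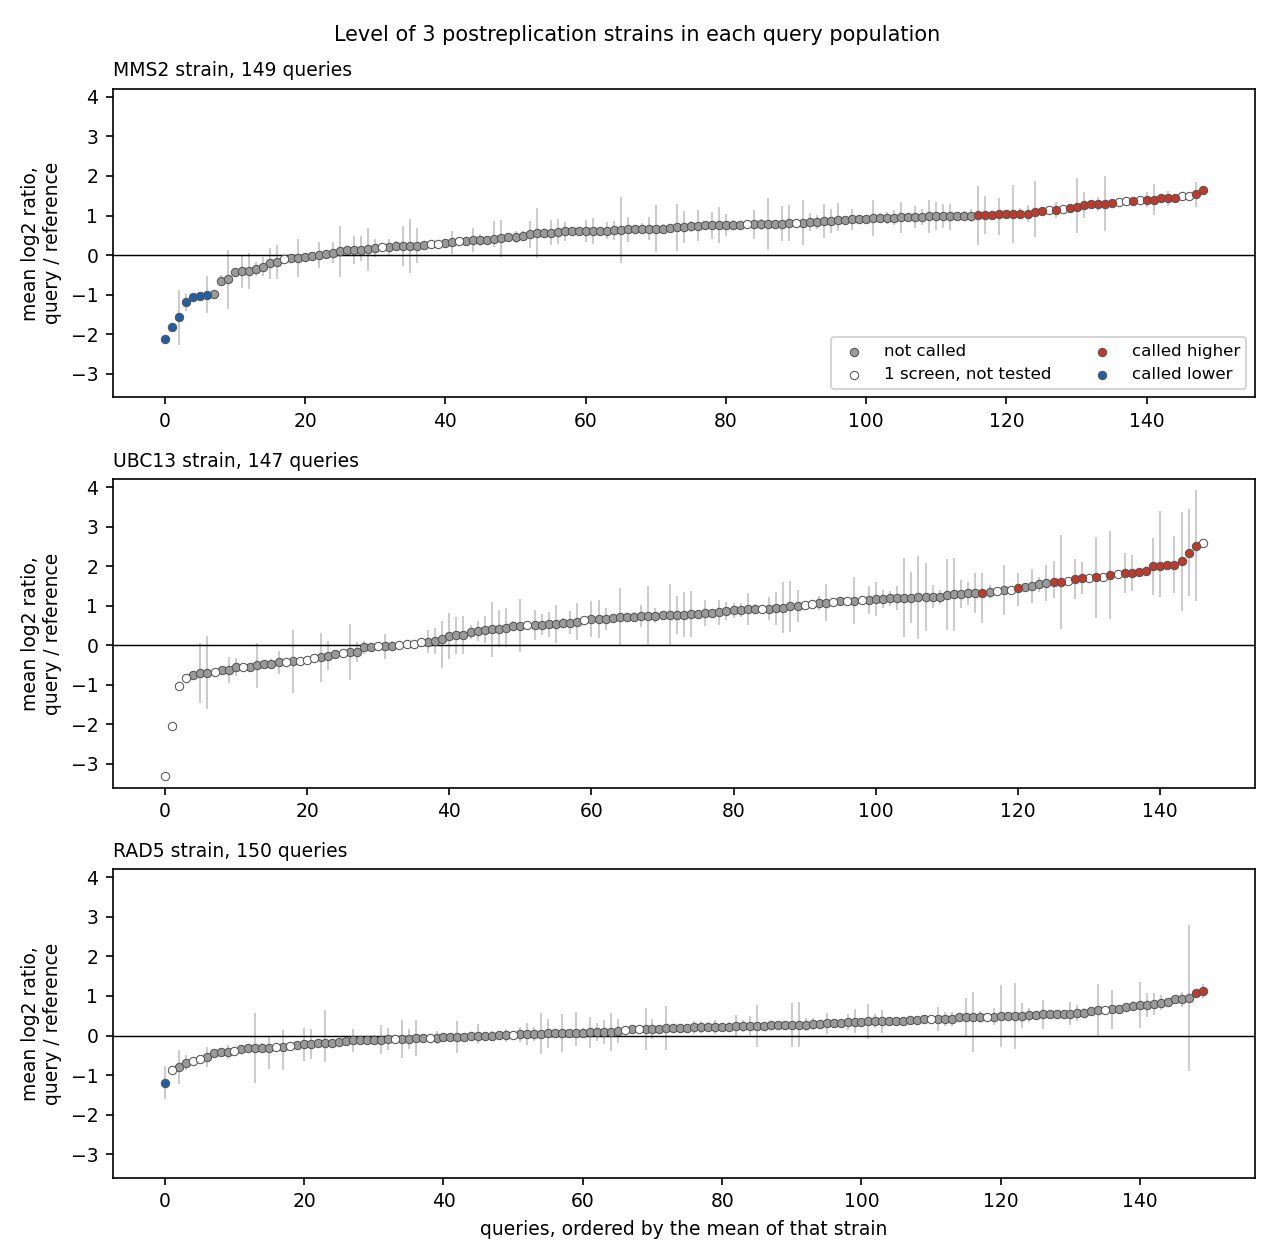
Mean log2 ratio of the MMS2, UBC13 and RAD5 strains in every query outside their linked windows, ordered by the mean; grey lines join the lowest and highest screen, red and blue points are called higher and lower, and open points have 1 screen. MMS2 has 26 red and 7 blue points, UBC13 19 red and 0 blue, and RAD5 2 red and 1 blue.

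The MMS2 strain was called higher in 26 of 135 tested queries and lower in 7. Of all strain and query pairs, 1.21% were called higher and 2.33% lower. MMS2 was chosen for these calls, so they are a description and carry no p. The query with the highest mean was PTC1, a protein phosphatase gene, with 1.67 and 1.62 in its screens. It was followed by LYS9 (lysine synthesis) with 1.85 and 1.22, MRN1 (an RNA-binding protein) with 1.55 and 1.36, FPR3 (a nucleolar prolyl isomerase) with 1.63 and 1.24, and NOG1 (a GTPase of ribosome assembly) with 1.53 and 1.34. All screens of all 33 called queries had the sign of their mean, and in 17 of the 33 every screen was past 1 in size.

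The queries in which MMS2 was lower were mostly those of the proteasome. RPN4, which encodes the transcription factor of proteasome genes, gave -2.16 and -2.11, and PRE9, the one dispensable subunit of the core's rings, gave -1.88 and -1.78. RPN10, a ubiquitin receptor of the regulatory particle, gave -2.28 and -0.88. UBP6, the deubiquitinase bound to the proteasome, gave -1.08 and -0.97, and POC4, a chaperone of core assembly, gave -1.47 and -0.54. The remaining lower calls were in IRS4 (phosphoinositide control), with -1.40 and -0.99, and RPL12B (a ribosomal protein), with -1.07 and -1.03. The screens of RPN4 and PRE9 lay close together, and those of RPN10 and POC4 lay apart. The UBC13 strain, the partner in the heterodimer, was also below 0 in all 7 of these queries, from -3.30 in RPN10 to -0.40 in RPL12B, but it had no value in 1 screen of 6 of them and was not tested there.

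The UBC13 strain was called higher in 19 of 116 tested queries and lower in 0, with limma the only tool run; at an unadjusted p under 0.05 the counts were 45 higher and 0 lower. The highest mean among the calls was in SNR3, an H/ACA snoRNA, with 3.92 and 1.11 in its screens (mean 2.51 ± 1.99 (SD, n = 2), limma adjusted p = 0.000212). GCN4, the activator of amino acid synthesis, gave 3.44 and 1.24 (limma adjusted p = 0.000707). YJR084W gave 3.38 and 0.88 (limma adjusted p = 0.00284), and TOM1, a ubiquitin ligase gene, gave 2.76 and 1.32 (limma adjusted p = 0.00486). The screens of these 4 queries lay far apart. They were closer in RPL7B, a ribosomal protein gene, with 2.10 and 1.95 (limma adjusted p = 0.00532), and in HTB2, which encodes histone H2B, with 2.01 and 1.75 (limma adjusted p = 0.0119). PUS1, a tRNA pseudouridine synthase gene, was the only called query with 4 screens and had 3.40, 1.23, 1.58 and 1.82 (mean 2.01 ± 0.96 (SD, n = 4), limma adjusted p = 1.72e-05). The SNR65 query had a higher mean, 2.58, from 1 screen.

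The count of higher calls rests on where 0 is set. When each strain was also centred on its own median over queries, MMS2 had 0 higher calls (26 without that step) and UBC13 had 2, and when the reference pool was fitted as a block, each query against the mean of queries, MMS2 had 3 (HRD1, PTC1 and SLH1) and UBC13 had 2 (PUS1 and SNR3). Lower calls of MMS2 numbered 15 with the centring and 10 with the block, and those 10 included all 7 queries named above. They numbered 1 with arrays scaled to 1 SD, 1 with quantile normalization, 2 from the first feature alone, 3 at a size of 1.5 and 4 with mixed references, and 2 and 3 without replicates 1 and 2.

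RAD5 was called in 3 of 136 tested queries. It was lower in RPN10, with -1.61 and -0.78 in the screens (mean -1.20 ± 0.59 (SD, n = 2), limma adjusted p = 0.00963). It was higher in PHO23, a subunit gene of a histone deacetylase complex, with 1.31 and 0.95 (limma adjusted p = 0.0174), and in RAI1, the partner of a nuclear exonuclease, with 1.14 and 1.00 (limma adjusted p = 0.0289). A share of 2.21% of its tested queries was called in either direction, against 3.54% of all pairs. The RPN10 query lowered many strains, 7.81% of 3955 tested, and its call on RAD5 was lost with arrays scaled to 1 SD (-0.70, adjusted p = 0.202) and with quantile normalization (-0.65, adjusted p = 0.253). Both higher calls were lost with the pool block, at 1.07 in PHO23 (adjusted p = 0.131) and 0.81 in RAI1 (adjusted p = 0.292).

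The partners of the heterodimer tended to be high and low in the same queries. Across 142 queries the means of MMS2 and UBC13 correlated with r = 0.687 (Spearman's rho 0.596). The value was 0.658 without PRE9 and RPN4, the queries farthest out, and 0.587 over 132 queries without those of the proteasome. Both strains were read on the same arrays, against the same references: with MMS2 taken from the first screen of each query and UBC13 from the second, r was 0.363 (118 queries), and the reverse gave 0.479 (123 queries). For comparison, the screens of a query correlated at 0.628 for MMS2 (135 queries), 0.343 for UBC13 (116) and 0.143 for RAD5 (136). On query means, MMS2 had the highest r with UBC13 of 4002 strains, and UBC13 ranked 21 among 3998 strains for MMS2, where the 95th percentile was 0.484. That top rank did not hold in the other readings. Across separate screens VPS60 had 0.410 and 0.547 with UBC13, above the 0.363 and 0.479 of MMS2. Without the proteasome queries TCM62 had 0.594 with UBC13, against 0.587 for MMS2.

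RAD5 was less like either of them, though the difference in r was not tested. Its query means correlated with those of MMS2 at r = 0.0704 (145 queries) and with those of UBC13 at 0.217 (143 queries), or 0.0700 without PRE9 and RPN10. UBC13 ranked 190 among 3990 strains for RAD5, just above the 95th percentile of 0.214, and MMS2 ranked 1215. In the 26 queries where MMS2 was called higher, UBC13 was above 0 in all 26, with a median of 1.31, and RAD5 was above 0 in 20 of 25, with a median of 0.24. Over all queries UBC13 was above 0 in 113 of 147 (median 0.78) and RAD5 in 102 of 150 (median 0.20). The RAD5 median was thus near its usual level, and the 26 were picked on the values of MMS2 itself. In the 7 where MMS2 was called lower, RAD5 ran from -1.20 to 0.55 and was below 0 in 3. Of 112 queries tested for both, 11 were called higher for MMS2 and UBC13 alike, 44% of the 25 calls of MMS2 and 57.9% of the 19 of UBC13: GCN4, HRD1, HTB2, MTC4, NOG1, PUS1, RPS14B, SHM2, SHQ1, SNR33 and UBC11. No query was called in opposite directions for MMS2 and UBC13. Among these 112 queries UBC13 had 0 lower calls and MMS2 had 1, so that absence says little about agreement. RPN10 was the 1 query called for both MMS2 and RAD5, lower in each. Of the 11 shared calls, HRD1 and UBC11 rest on turned arrays alone and have the opposite sign as deposited (UBC13 -1.83 and -1.86).

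**Figure D3:**
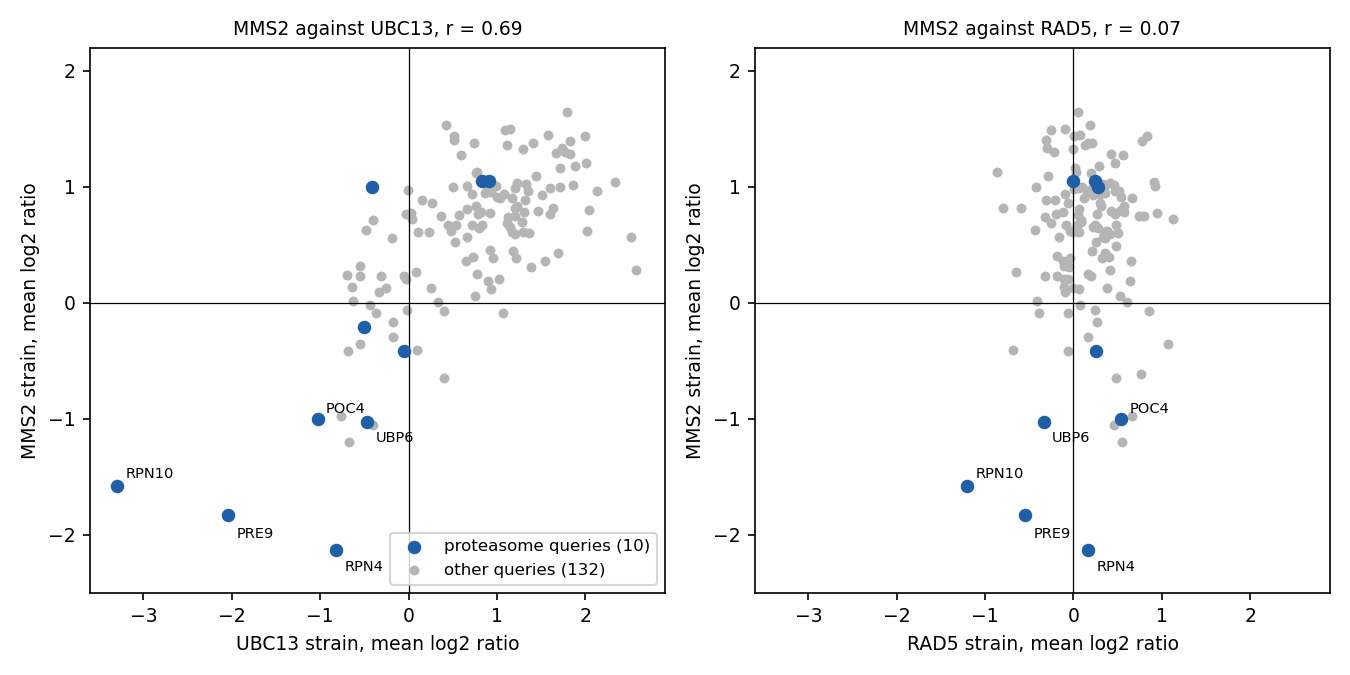
Query means (log2) of the MMS2 strain against those of the UBC13 strain (left) and of the RAD5 strain (right), 1 point per query, with proteasome queries in blue. RPN10, PRE9, RPN4, POC4 and UBP6 lie low for both MMS2 and UBC13, and the cloud is tilted on the left (r = 0.687) and flat on the right (r = 0.0704).

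Proteasome queries were then set against all others, to ask whether the partner strains move with a class of queries. The class was chosen with earlier results of these data known, and MMS2 had already been called lower in several of its queries. The p-values below therefore belong to a contrast that these same data had pointed to. The UBC13 strain averaged -0.47 ± 1.25 (SD, n = 12) in proteasome queries and 0.79 ± 0.77 (SD, n = 135) in the others, a difference of -1.26 with an SE of 0.24 (limma adjusted p = 3.21e-05 over strains). In this comparison 12.5% of all strains were called. By query the UBC13 strain had -3.30 in RPN10, -2.04 in PRE9, -1.03 in POC4, -0.82 in RPN4, -0.50 in IRC25, -0.47 in UBP6, -0.42 in ADD66 and -0.05 in SEM1, and it was above 0 in RPN14 (0.51), HUL5 (0.73), NAS6 (0.83) and NAS2 (0.91). The proteasome queries were thus split, with 8 of 12 below 0. The UBC13 values in RPN10, PRE9, POC4, RPN4, ADD66 and RPN14 rest on 1 screen each, and the 4 lowest are among them. The MMS2 strain, given with no test, averaged -0.51 in 10 proteasome queries and 0.65 in 139 others, with 1.00 to 1.05 in ADD66, NAS6 and NAS2 beside the negative values above. RAD5 averaged -0.05 ± 0.49 (SD, n = 11) in proteasome queries and 0.19 ± 0.38 (SD, n = 139) in the others (difference -0.23, limma adjusted p = 0.13).

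The difference between UBC13 and RAD5 was itself tested. UBC13 minus RAD5 averaged -0.42 ± 1.03 (SD, n = 11) in proteasome queries and 0.60 ± 0.82 (SD, n = 132) in the others, a difference of -1.02 (two-sided permutation test over queries, 100000 resamples, p = 0.00028). Queries share reference pools, and the class had been chosen with earlier results of these data known. In RPN10, PRE9, RPN4, POC4, ADD66 and RPN14 UBC13 had 1 screen each. The permutation test gave these queries the same weight as the others and was not repeated without them. UBC13 had no value in 6 of 24 proteasome screens and in 16 of 280 other screens, and the part of missing values in the result was not tested. Within reference pools that held both kinds of query, UBC13 was lower in proteasome screens in 9 of 10 pools (median difference -1.03), MMS2 in 9 of 11 (median -1.70) and RAD5 in 9 of 12 (median -0.27). The UBC13 difference fell short of the threshold with the mixed references alone (-0.64, adjusted p = 0.2) and without the screens of replicate 1 (-0.56, adjusted p = 0.184), which leave out the only UBC13 values of RPN10 and PRE9.

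**Figure D4:**
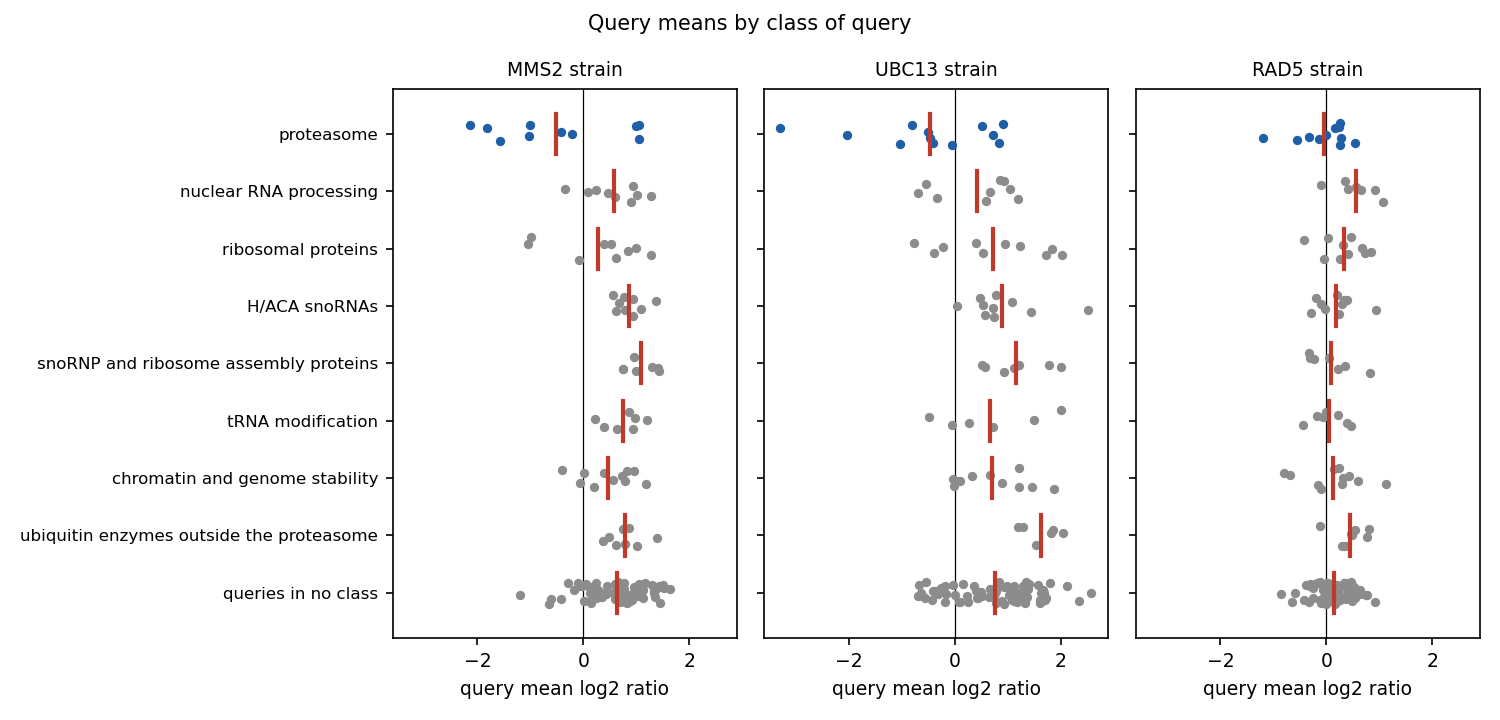
Query means (log2) of the MMS2, UBC13 and RAD5 strains by class of query, with proteasome queries in blue; each point is a query and the red bar is the class mean. Proteasome queries average -0.51 for MMS2, -0.47 for UBC13 and -0.05 for RAD5, and each of the other 7 classes averages above 0 for UBC13. Its ubiquitin enzyme class averages -0.0027 with every array as deposited, and 1.62 without the 3 queries that rest on turned arrays alone.

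In the other 7 classes, 0 of 14 differences of UBC13 and RAD5 were called with limma, the only tool run, and 3 had an unadjusted p under 0.05. Of all strains, 3.39% were called for nuclear RNA processing, 1.33% for H/ACA snoRNAs, 1.33% for snoRNP and ribosome assembly, 0.776% for ribosomal proteins, 0.242% for tRNA modification and 0% for the chromatin and ubiquitin enzyme classes. UBC13 averaged 1.63 ± 0.34 (SD, n = 6) in queries of ubiquitin enzymes outside the proteasome and 0.65 ± 0.88 (SD, n = 141) in the others (difference 0.98, limma adjusted p = 0.727). Of those 6 queries, 3 rest on turned arrays alone: with every array as deposited the class averaged -0.0027, and without the 3 it averaged 1.62 over the other 3. RAD5 averaged 0.45 ± 0.29 (SD, n = 8) in the same class and 0.15 ± 0.39 (SD, n = 142) in the others (limma adjusted p = 0.727), and its class mean was -0.02 as deposited. In nuclear RNA processing queries RAD5 averaged 0.55 ± 0.38 (SD, n = 7), against 0.15 ± 0.38 (SD, n = 143) in the others (limma adjusted p = 0.0785). Across the snoRNP and ribosome assembly queries, MMS2 averaged 1.08 in 7 queries and 0.54 in 142 others. UBC13 averaged 1.16 in 7 queries of that class and 0.67 in 140 others (limma adjusted p = 0.48).

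Of 13 queries tied by name to DNA repair, histone H2B, ubiquitin or SUMO, HTB2 and UBC11 gave calls on the members. In the RAD50 query, a break repair gene, MMS2 had 0.42 and -0.0040, RAD5 had 0.27 and -0.47, and UBC13 had -0.03 in 1 screen. In the RNH201 query, a subunit of the nuclease that removes ribonucleotides from DNA, the screen given first is on a turned array. RAD5 had -0.37 and -1.23 there (mean -0.80, limma adjusted p = 0.167), MMS2 had 1.38 and 0.26, and UBC13 had 1.85 and 0.57. As deposited the means were -0.43 for RAD5, -0.56 for MMS2 and -0.64 for UBC13, so the order of the means of RAD5 and the heterodimer in this query depends on the turn. In the unturned screen by itself RAD5 (-1.23) was below MMS2 (0.26) and UBC13 (0.57). Of 45 listed strains other than the members tested in RAD50, 6 were called lower and 2 higher, and of all strains tested there 2.01% were called lower and 0.942% higher. Among the 6, ELG1, which unloads PCNA, had a mean of -4.12, POL32, a subunit of the replicative and translesion polymerases, -2.82, and SRS2, an antirecombination helicase recruited by modified PCNA, -2.33 (limma adjusted p = 5.21e-25, 9.02e-05 and 6.94e-14 in that order). LGE1 (-2.67), RTT107 (-1.37) and SGS1 (-1.22) were the other 3, and the checkpoint strains RAD9 (1.64) and RAD24 (1.25) were the 2 called higher. These strains were singled out after their values were seen.

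HTB2, histone H2B, was called higher for MMS2 (1.20 and 1.16) and UBC13, and RAD5 had a mean of 0.29 there. For the histone variant HTZ1, the means were 0.79 for MMS2, 1.46 for UBC13 (limma adjusted p = 0.0829) and 0.42 for RAD5. SMT3, the SUMO gene, gave 0.81, 0.66 and 0.06 in that order of strains. UBP8, the H2B deubiquitinase, was the 1 query of these in which MMS2 (-0.40) and RAD5 (-0.69, limma adjusted p = 0.285) both had negative means, on turned arrays alone (0.40 and 0.69 as deposited). NAP1, PIN4, HUG1, UBC5, UBR1 and DMA1 gave no call, with means of 0.25 to 0.97 for MMS2, 0.71 to 1.29 for UBC13 (not measured outside the linked window in UBC5) and 0.15 to 0.80 for RAD5.

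The strains most like each member across queries differed between the heterodimer and Rad5. For MMS2 they were SIP5 (r = 0.783), DCR2, a phosphatase (0.774), VPS60 (0.767) and DID2 (0.751), both of the membrane-sorting ESCRT machinery, and VPS68 (0.761), also of vacuolar sorting. For UBC13 they were MMS2, VPS60 (0.662), RPN6, a lid subunit of the proteasome (0.659), TCM62, a mitochondrial protein (0.640), and PRE10, a core subunit (0.640). For RAD5 they were RAD59, a recombination protein (0.459), POL30, which encodes PCNA itself (0.429), MRC1, the mediator of the replication checkpoint (0.421), RTT107, a scaffold of fork repair (0.413), and DUT1, the enzyme that removes dUTP (0.386). Over all these strains r was taken across 139 to 149 queries, which share arrays and references. With 1 strain from each screen they were lower, 0.50 to 0.67 for the 5 strains most like MMS2, 0.21 to 0.56 for those most like UBC13 and -0.01 to 0.37 for those most like RAD5. The strains least like the members were TOS4 (-0.554), SCT1 (-0.518) and PFA5 (-0.504) for MMS2, TIS11 (-0.575), ADH7 (-0.560) and PDC5 (-0.512) for UBC13, and NSG1 (-0.382), STP4 (-0.347) and YPR014C (-0.325) for RAD5.

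The 5 strains most like RAD5 had r of -0.0156 to 0.104 with MMS2, and the 5 most like MMS2 had r of -0.0146 to 0.155 with RAD5. With UBC13 the separation was weaker: the 5 strains most like RAD5 had r of -0.0173 (RTT107) to 0.290 (POL30) with it. The sorting strains were not raised as MMS2 was: their median levels over queries were 0.27 for VPS60, 0.06 for DID2 and 0.06 for VPS68, against 0.71 for MMS2. Lower calls numbered 24 for VPS60, 25 for DID2 and 8 for VPS68, against 7 for MMS2. POL30 had 1 higher and 2 lower calls and a median level of 0.02.

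**Figure D5:**
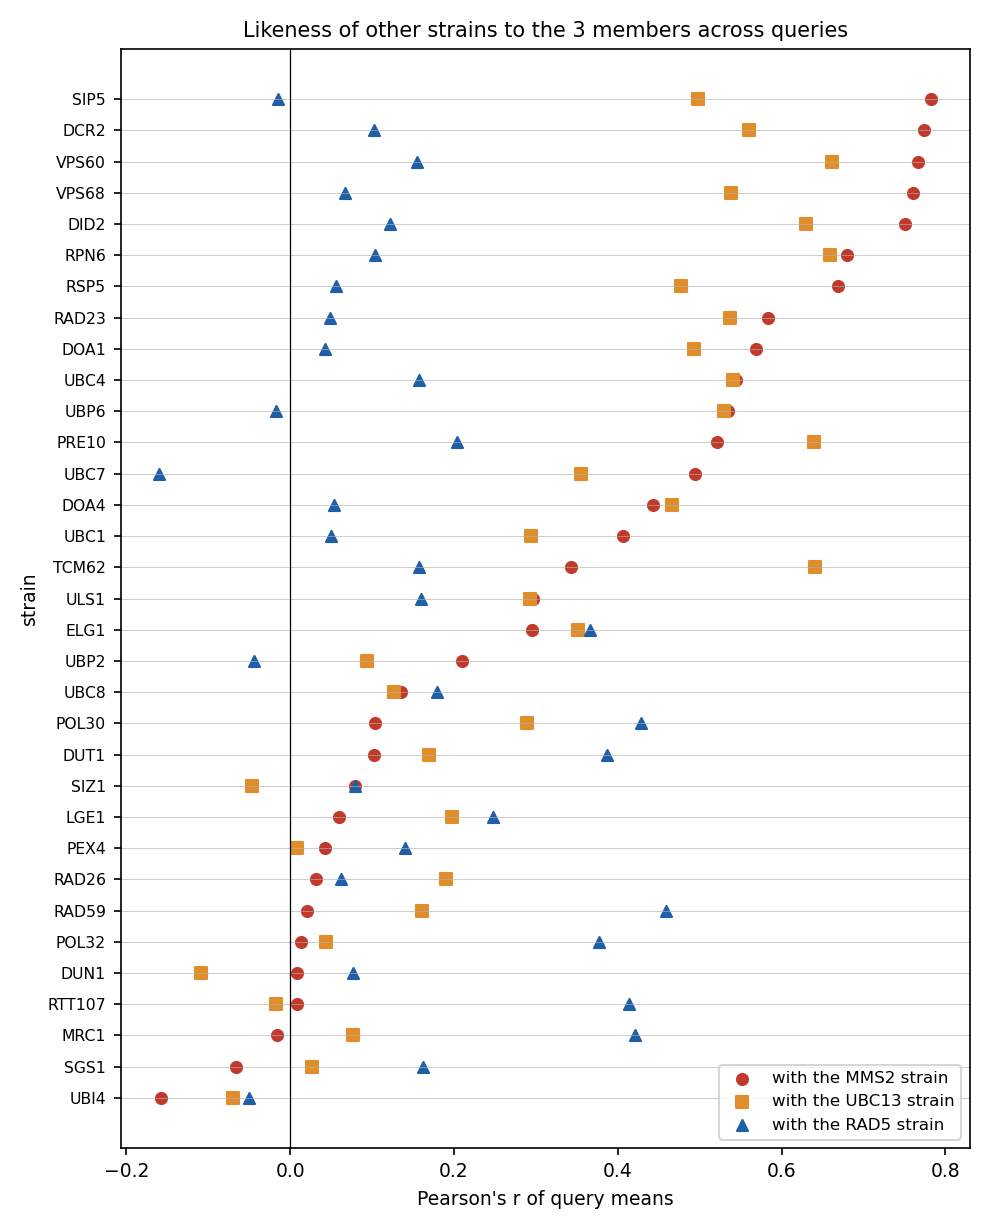
Pearson's r of query means between each strain on the left axis and the MMS2 (circles), UBC13 (squares) and RAD5 (triangles) strains, for the strains most like a member and the listed pathway strains with at least 5 calls. VPS60, DID2, RPN6, RSP5, DOA1 and UBP6 sit to the right for MMS2 and UBC13 and at -0.0175 to 0.155 for RAD5, UBI4 and UBP2 sit further left for MMS2 (-0.158 and 0.210), and RAD59, POL30, MRC1, RTT107, DUT1 and POL32 sit to the right for RAD5 and near 0 for MMS2. ELG1 sits to the right for all 3 members (0.296 for MMS2, 0.352 for UBC13 and 0.367 for RAD5).

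Other strains of ubiquitin and DNA damage pathways were read from 8 lists. For comparison, 1.21% of all strain and query pairs were called higher and 2.33% lower. Translesion synthesis, the other branch that PCNA ubiquitin serves, had 1 higher and 6 lower calls in 668 tested pairs over 5 of 5 strains, 0.150% and 0.898%. All 6 lower calls were of POL32, the median level of the 5 strains ran from -0.12 to 0.08, and the polymerase strains REV1, REV3 and RAD30 had 0 calls with limma, though 3 to 7 queries in each direction had an unadjusted p under 0.05. The median levels of these 3 polymerase strains were -0.04, 0.05 and 0.05, against 0.71 for MMS2. The list of PCNA SUMO, unloading and helicase genes had 25 higher and 26 lower calls in 909 pairs over 7 of 8 strains, 2.75% and 2.86%. Among them ELG1 had 9 higher and 8 lower, ULS1, a SUMO-targeted translocase, 5 and 13, SGS1, a helicase, 4 and 2, and SIZ1, the SUMO ligase of PCNA, 7 and 0. SIZ1 also had a median level of 0.48, nearer to MMS2 than any other strain on that list, but its r with MMS2 was 0.0795.

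Ubiquitin recycling strains had the pattern nearest to MMS2 among the lists, with a median r of 0.489, against 0.0126 with RAD5. RSP5, the ligase that marks membrane cargo, had r = 0.669 with MMS2, DOA1, which keeps the ubiquitin supply, 0.569, the deubiquitinases UBP6 and DOA4 0.535 and 0.443, and UBP2, which trims non-degradative chains, 0.210. UBI4, the stress ubiquitin gene, had -0.158. These 6 strains were called lower in 125 of 799 pairs, 15.6%, and higher in 12, 1.50%, and their medians ran from -0.28 to 0.13, below that of MMS2. Of the other ubiquitin-conjugating enzymes, 10 of 11 were measured, with 11 higher and 54 lower calls in 1339 pairs, 0.822% and 4.03%. UBC4 held 28 of the lower calls and had r = 0.545 with MMS2, UBC7, of ER degradation, 0.494, and UBC1 0.406, whereas PEX4, the peroxisomal enzyme, and UBC8 had 0.0421 and 0.136.

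DNA repair strains varied in their likeness to MMS2. The 9 strains of nucleotide excision repair had 7 higher and 36 lower calls in 1214 pairs, 0.577% and 2.97%, against 1.21% and 2.33% of all pairs. Their median r with MMS2 was 0.0309. RAD23, which also carries ubiquitinated proteins to the proteasome, held 20 of the lower calls and had r = 0.583, and RAD26 held 8 and had 0.0309. RAD16 and RAD1, named after their values were seen, had r of 0.444 and 0.336, and the other 5 had -0.186 to 0.0382. Of the DNA damage checkpoint, 6 of 8 strains gave 7 higher and 9 lower calls in 812 pairs (0.862% and 1.11%), DUN1 with 6 of the lower ones. The RTT101 ligase list had 2 of 6 strains measured, with 1 higher and 2 lower calls in 229 pairs (0.437% and 0.873%). Of the other Rad6 partners, 1 of 5 was measured: LGE1, which works with Rad6 on histone H2B, had 4 higher and 15 lower calls in 135 pairs (2.96% and 11.1%). The LGE1 strain had a median level of -0.13 and r = 0.0594 with MMS2 and 0.248 with RAD5. With RAD5, the listed strains POL32 and ELG1 had r of 0.377 and 0.367. ELG1 was nearly as like UBC13 (0.352) and had 0.296 with MMS2, whereas POL32 had 0.0434 and 0.0127 with them.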

How the data were processed

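Barcode arrays compared a query population (Cy3) with a reference population (Cy5), per the labels. The deposited values are 1 log ratio per feature and array, taken here as log2; the authors' software, normalization, centring, log base and sign are, in the sources used here, not given. Features were kept if at least 80% of arrays had a value (8632 of 15744) and averaged by gene symbol into 4125 strains. Array medians were set to 0, and an array was turned where the median of strains up to 25 genes from its query locus was positive. Arrays of 1 screen were averaged. The R64 annotation served for names and gene order alone. Each strain was fitted with limma's model, 1 mean per query with moderated variance (prior 4.82 degrees of freedom), in closed form in Python 3.11.15, checked against limma 3.58.1 in R 4.3.3 on 203 strains and tested on simulated data. The variance is pooled over queries, so a small p does not show that the screens of a query lie close together. Benjamini-Hochberg correction ran over all pairs. Query classes were compared on query means with the same moderated test; a class call needed a log2 difference of 0.5 or more and an adjusted p under 0.05 among the strains. Only the number of arrays can be given as a limit of precision, since ratios hold no signal level.

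Members, classes and lists were chosen with earlier results of these data known. Named were, for each member, up to 5 called queries at either end, queries called for 2 members, and 13 queries tied by name to ubiquitin, SUMO, histone H2B or DNA repair; the 5 most and 3 least alike strains over at least 100 queries; and listed strains with at least 5 calls. Alternatives covered the direction of arrays, reference pool and kind, replicate number, normalization, scale, centring, feature filter, barcodes, linked window, call size and left-out replicates.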

Additional observations from a re-analysis of the deposited data

Results flagged for a closer look

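In the VMS1 query, which had 4 screens, the MMS2 strain had log2 ratios of 0.856, 0.293, 0.271 and 0.197, and the highest screen stood apart from the other 3. That screen is the one on a turned array. Of 8 groups of at least 4 screens that were examined, this was the 1 with such a gap, and chance gives about 1 in 20.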

How the results depend on the processing

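The median levels of the 3 strains moved by less than their spread under every alternative run on them. The 47 higher calls of the members became 26 with all arrays as deposited, 19 at a size of 1.5, 6 with the reference pool as a block, 19 from the second feature alone and 2 with strains centred; leaving out replicates gave 6 to 48. The 8 lower calls became 1 with arrays scaled, 1 with quantile normalization, 2 from the first feature alone, 3 at a size of 1.5, 4 with mixed references and 16 with strains centred; leaving out replicates gave 2 to 9. Without replicate 1 or 2, most queries keep 1 screen. The 1 class call became 2 from the first feature alone and 0 with mixed references, and 0 to 1 without replicates. The r of MMS2 and UBC13 was 0.610 from the first feature alone, 0.625 with mixed references, 0.754 with the pool block, 0.587 without proteasome queries, 0.363 and 0.479 across screens and 0.512 to 0.694 without replicates. That of MMS2 and RAD5 was 0.157 as deposited, -0.0488 with mixed references, -0.0475 with quantile normalization, -0.0294 from the second feature, -0.0846 without proteasome queries and 0.0118 to 0.170 without replicates. Of 22 named pairs of UBC13 and RAD5, 4 changed sign: UBC13 in GIM4 (-0.50) and MTC4 (-0.16) with the pool block, and in HRD1 (-1.83) and UBC11 (-1.86) as deposited. More pairs kept their sign but lost their call: 19 with strains centred, 17 with the pool block, 13 with quantile normalization, 8 as deposited and 4 with arrays scaled. All 22 kept it with the other feature filters, the median of features and the other linked windows. The causes were not tested.

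With the replicate block the higher calls numbered 31. Replicate numbers are not stated to pair the samples, and deviations of screens with the same number correlated with a median r of 0.0101. Alternatives that used single features or left out turned arrays or proteasome queries were chosen after seeing the data.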
